A study of Rattus norvegicus with 6 samples.

Results

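The lncRNA transcripts of the hypothalamus were compared with those of liver, cortex, outer medulla and left ventricle in male rats of the inbred Brown Norway (BN) strain, aged 6 weeks and given no treatment in the labels. The series has 6 samples, 1 per tissue, and the sample of the adrenal gland, another endocrine organ, was left out of the contrast. The deposited table holds 2458 transcripts as lncRNAs, and all 2455 with values were taken. Abundance is in FPKM, which divides fragments by the length of the transcript and the size of the library, with 2 columns per tissue, called column 1 and column 2. Pairs of values are in that order. The hypothalamus columns were matched by elimination, because their code was the only one that fitted no other tissue label. No organ is named in the cortex label. Nothing in the labels says whether a tissue's 2 columns are separate animals, so every p-value rests on column-to-column spread alone, which may be technical.

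Long non-coding RNAs are transcripts that are not thought to be translated, and many are made in few tissues. Some act in the nucleus on chromatin or transcription, some are host transcripts from which microRNAs are cut, and the role of most is not known. The hypothalamus joins the nervous and endocrine systems: its neurons and glia control the pituitary, feeding, temperature, water balance and stress responses. A microRNA finds its target RNAs mainly through its seed, bases 2 to 8 counted from its 5′ end.

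Several transcripts described here overlap microRNA genes. Mature sequences are shown 5′ to 3′ with the seed in capitals. They are from 3 genes with transcripts higher in the hypothalamus and 1 with a lower transcript. The sequences come from RefSeq (GRCr8), where 11 of the 16 microRNA names among the tested transcripts had an entry. The mature microRNAs themselves were not measured, and whether they are cut from these transcripts was not tested.
rno-miR-384-5p: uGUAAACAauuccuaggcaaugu
rno-miR-325-3p: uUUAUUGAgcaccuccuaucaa
rno-miR-129-5p: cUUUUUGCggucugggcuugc
rno-miR-143-3p: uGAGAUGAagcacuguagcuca
The seed of rno-miR-384-5p, GUAAACA, was found in 4 of the 693 mature names of the RefSeq table, the others being rno-miR-30a-5p, rno-miR-30c-5p and rno-miR-30e-5p. The seeds of rno-miR-325-3p, rno-miR-129-5p and rno-miR-143-3p were each found in that 1 name only.

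Steps between low FPKM values implied 27520000 and 31810000 fragments in the hypothalamus columns and from 3867000 (liver column 2) to 18320000 (outer medulla column 2) in those of the 4 other tissues. Allowing 3 fragments behind a zero, a listed 0 in a transcript with 1 kb of usable length allows an FPKM of up to 0.0943 in hypothalamus column 2 and 0.776 in liver column 2, for counting error only. In a table without counts an exact 0 can also be a failed estimate. The log2 FPKM of the hypothalamus columns correlated across transcripts at r = 0.92 and those of the liver columns at 0.73, a description over transcripts and not over animals.

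The label was checked against lists of marker genes. None of the 63 genes on the hypothalamic list, the 31 on the neuronal list, the 13 on the pituitary list or the 11 on the blood list named a transcript of this lncRNA table, so those genes could not serve as a check. The 6 transcripts at genes on the list of neural lncRNAs summed to an FPKM of 9.29 and 15.3 in the hypothalamus, against 0.109 to 2.79 in the columns of the 4 tissues. In cortex they summed to 0.109 and 0.828, while the 4 transcripts at kidney genes summed to 13.3 and 16.6 there and to 0.0354 and 0.069 in the hypothalamus. Most of that cortex sum was the transcript at Slc12a1 (12.2 and 14.7). The one at Wt1, also on the kidney list, was at 0 in cortex and had 2.69 and 0.496 in liver. The only transcript at a heart gene, Myl1, had 32.1 and 36.5 in cortex, 34.7 and 32.4 in the adrenal gland, and 4.43 and 34.9 in left ventricle. Liver markers summed to 0.255 and 0.0948 in the hypothalamus, against 28.7 and 61.2 in liver.

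Transcripts high in the adrenal gland were also seen in a hypothalamus column, and the reverse. TCONS_00098844, which overlaps the adrenal steroid synthesis gene Cyp11b3, had an FPKM of 60.5 and 44.4 in the adrenal gland and of 5.89 and 1.21 in the hypothalamus, against 0 to 2.18 in the 8 columns of the 4 tissues. Among 10 transcripts with an adrenal mean of 5 or more and under 0.5 in all 8 columns, hypothalamus column 1 held a median of 15.4% of the adrenal mean and column 2 held 6.7%. In the reverse direction, 6 transcripts that were high in the hypothalamus by the same rule had medians of 5.93% in adrenal column 1 and 18.5% in adrenal column 2. TCONS_00111810, TCONS_00111811 and TCONS_00111812, among these 6, share 1 locus and are not independent. The transcripts of both sets were picked on the same values, and their part in the results was not tested. Each result that rests on 1 hypothalamus column is also given without it.

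For the tests, 1132 transcripts at 883 loci were kept, whose mean FPKM reached 1 in any of the 5 tissues. limma was fitted on log2(FPKM + 0.1), so differences are on that scale and understate changes of low transcripts, and p-values were adjusted with the Benjamini-Hochberg method at 0.05. Against the average of the 4 tissues, 141 transcripts (12.5%) were higher in the hypothalamus and 604 (53.4%) were lower. The median difference over all tested transcripts was -1.24. Of the 604, 188 were listed at 0 in both hypothalamus columns.

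How many transcripts counted as lower depended on the scale. Over 533 transcripts with which columns were set to the same median, the hypothalamus columns had to be multiplied by 1.85 and 1.96 and the other columns by 0.758 to 1.06. The median difference then moved to -0.60, with 323 higher and 464 lower, so that 41.0% of calls were higher, against 18.9% as deposited. With columns set to the same upper quartile, 255 were higher and 475 lower (34.9% higher) at a median difference of -0.85. Counts of lower transcripts are therefore given under both scales.

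Each tissue was then taken alone. As deposited, 160 transcripts (14.1%) were higher and 356 (31.4%) lower in the hypothalamus than in liver, and 142 (12.5%) higher and 435 (38.4%) lower than in cortex. Against outer medulla 134 (11.8%) were higher and 405 (35.8%) lower, and against left ventricle 135 (11.9%) and 291 (25.7%). The median differences were -0.56, -0.89, -0.80 and -0.58 in that order. After rescaling to the same median, the higher and lower counts were 335 and 275 for liver, 306 and 304 for cortex, 293 and 258 for outer medulla, and 281 and 217 for left ventricle. With the upper quartile they were 282 and 293, 262 and 282, 229 and 276, and 212 and 275. The 4 comparisons share the hypothalamus columns.

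**Figure D1:**
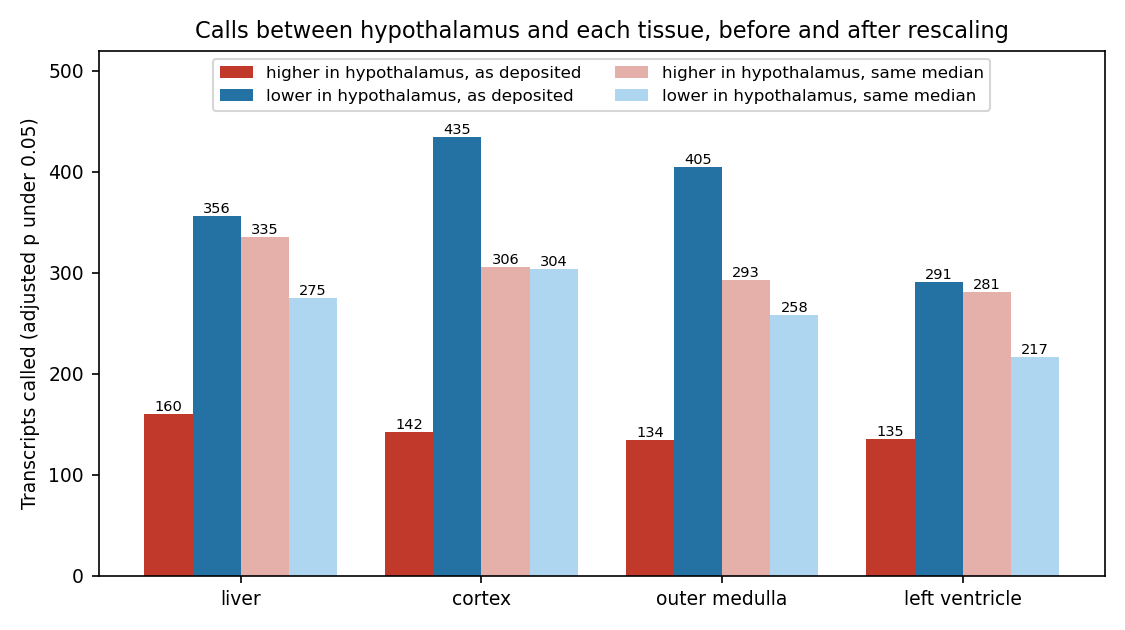
Bars give the number of transcripts called higher (red) or lower (blue) in the hypothalamus than in each of 4 tissues, from FPKM as deposited (dark) and after columns were set to the same median (pale). Lower calls outnumber higher calls in all 4 pairs as deposited, and higher calls reach or pass lower calls in all 4 after rescaling.

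A stricter call asked a transcript to differ from each of the 4 tissues in 1 direction. By this call 82 transcripts (7.24%) at 71 loci were higher and 26 (2.3%) were lower. Both hypothalamus columns lay above all 8 other columns in 129 tested transcripts (11.4%) and below all 8 in 201 (17.8%), and this held for 82 of the 82 and 26 of the 26. All 82 were also called after rescaling to the same median, which raised the count to 202. None of the 26 was: limma then called 0 lower than each tissue, with 39 at an unadjusted p under 0.05, although 25 of the 26 were still called below the average. Without hypothalamus column 1, 84 were called higher (68 of the 82 among them), and without column 2 there were 68 (63 of the 82). The lower count fell to 0 without either hypothalamus column or without outer medulla column 2, with 91, 78 and 88 at an unadjusted p under 0.05.

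The hypothalamus mean of the 82 higher transcripts ran from 1.005 to 48.3 FPKM with a median of 1.98, against a median of 2.08 for the highest tissue of all tested transcripts, and 5 reached 10 or more. In the 4 tissues 78 stayed under 0.5 in all 8 columns, and 10 were listed at 0 in all 8. Of the 82, 62 had no reference gene. The hypothalamus columns were within 2-fold of each other for 79. Only 2 of the 82 reached the minimum FPKM in another of the 4 tissues, and the other 80 had entered the test through the hypothalamus alone, as had 122 tested transcripts in all. Transcripts that enter in this way are bound to be high in the hypothalamus, so their number is a description.

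**Figure D2:**
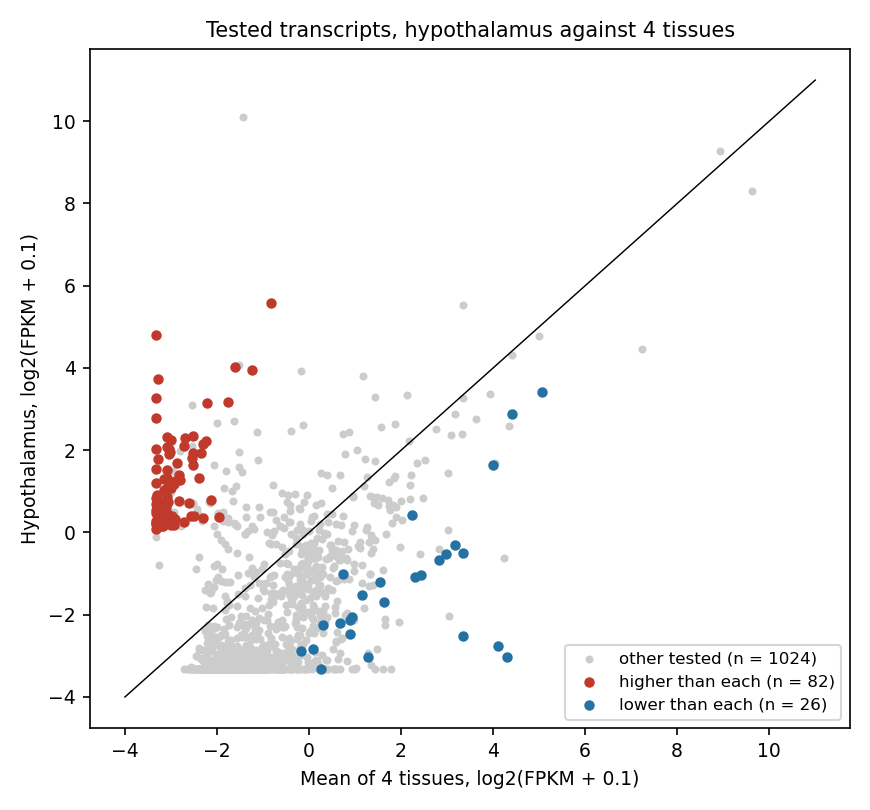
Each point is 1 tested transcript, with the mean log2(FPKM + 0.1) of 4 tissues on the x axis, that of the hypothalamus on the y axis, and a line of equal level. The 82 higher transcripts (red) sit near the floor of the x axis, the 26 lower ones (blue) spread along it, and the other 1024 are grey.

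The most extreme of the 82 came from chromosome X. TCONS_00111810 (rn5, chromosome X, 107512729 to 107513812) is 239 bases long and has no reference gene. Its FPKM was 24.3 and 32.2 in the hypothalamus and 0 in all 8 columns of the 4 tissues. It was called higher than each tissue (limma, adjusted p = 4.86e-06) and stood at 1.14 and 5.37 in the adrenal gland. Both other transcripts of its locus that were tested, TCONS_00111811 (10.7 and 8.45) and TCONS_00111812 (4.22 and 10.9), were also at 0 in all 8. A fold change cannot be given against columns listed at 0. Where all or nearly all of the 8 columns are at 0, they also add almost no spread. The p-value then rests mainly on the 2 hypothalamus columns and on spread that limma takes from other transcripts. A very small p-value of this kind does not rank a transcript above others.

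TCONS_00011497 (2665 bases, chromosome 1, 201907284 to 201977719, no reference gene) had 15.0 and 11.5 in the hypothalamus and 0 in 7 of 8 columns, the last being left ventricle column 2 at 0.0193 (adjusted p = 4.86e-06). Its adrenal values were 1.45 and 2.36. TCONS_00028980 (chromosome 13, 75525885 to 75529130, no reference gene) had 8.28 and 9.31 and was present in all 8 columns at 0.0273 to 0.289. It was higher than their average by 5.38 on the log2 scale (SE 0.28, adjusted p against each tissue 0.000148). Its levels did not overlap with those of any other tissue, the adrenal gland (0.856 and 1.75) included.

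Transcripts seen almost only in the hypothalamus among the 5 tissues made up most of the other extremes, and none of them had a reference gene. TCONS_00026703 had 3.18 and 5.04 with no column of the 4 tissues above 5.61e-07, and TCONS_00056587 had 4.14 and 5.74 with 0 in 6 of the 8. TCONS_00009693 had 3.68 and 4.35 against at most 0.0522, TCONS_00091809 had 3.39 and 3.36 against at most 0.0303, and TCONS_00107399 had 4.66 and 5.01 with 0.544 and 0.425 in liver and 0 elsewhere. Their adjusted p against each tissue ran from 7.11e-06 to 0.000347. TCONS_00035963 had 16.4 and 14.5 against up to 2.23 in left ventricle, and its call (adjusted p = 0.0412) was lost in 8 of the 10 fits without 1 column.

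**Figure D3:**
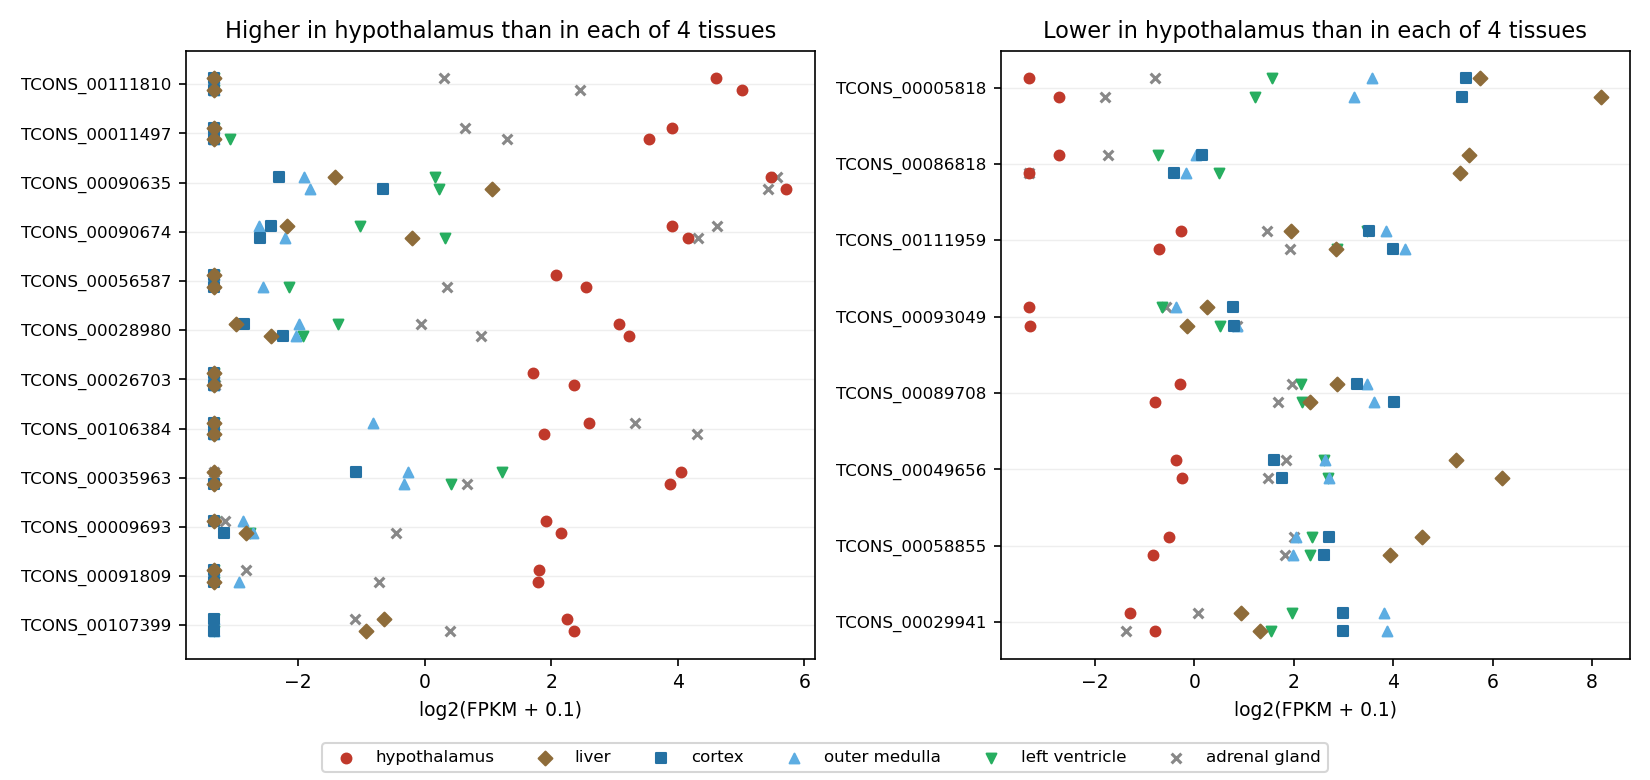
Each line shows 1 transcript with its 12 column values on a log2(FPKM + 0.1) axis, for the 12 higher (left) and 8 lower (right) transcripts that have the largest differences. The red hypothalamus points stand apart from all points of the 4 tissues in both panels, while the grey adrenal crosses reach or pass them in 3 of the 12 on the left.

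A group on chromosome 6 was high in both the hypothalamus and the adrenal gland. In the window of 1000000 bases from 142000000, 4 of 4 tested transcripts at 3 loci were called higher than each of the 4 tissues. This window was picked for its called loci. TCONS_00090674, TCONS_00090673 and TCONS_00090685 reached the minimum FPKM in the hypothalamus alone, so the filter fixed their direction and the count is a description. TCONS_00090635, which overlaps ENSRNOG00000041744 (142821642 to 142853124), had 44.2 and 52.4 in the hypothalamus, 47.1 and 43.0 in the adrenal gland, and 0.102 to 1.99 in the 8 columns, a difference of 6.42 (SE 0.67, adjusted p against each tissue 0.0077). TCONS_00090674 (142873330 to 142993513, no reference gene) had 14.8 and 17.7, with 24.6 and 19.9 in the adrenal gland and 0.0638 to 1.15 in the 8 columns (5.64, SE 0.56, adjusted p = 0.00904). TCONS_00090673, from the same locus, had 3.50 and 3.29, and TCONS_00090685 had 1.10 and 1.12 with 0 in all 8 columns. The calls of TCONS_00090635 and TCONS_00090674 were lost in 4 and 3 of the 10 fits without 1 column, those without either hypothalamus column among them.

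The next locus on chromosome 6 (143006931 to 143062780) holds transcripts at rno-mir-679 and Mir667. In the RefSeq table (GRCr8) Mir667 lies between Dlk1, a Notch-related ligand, and Dio3, a thyroid hormone deiodinase, which are imprinted genes at the ends of a microRNA-rich cluster. TCONS_00090695, at rno-mir-679, had 1.19 and 1.24 in the hypothalamus, 0.895 and 1.30 in the adrenal gland, and 0 to 0.0899 in the 8 columns (adjusted p against each tissue 6.9e-05). It was chosen for mention after its values were seen. The transcript at Mir667, the only one of the table at a gene on the list for this cluster, had 0.632 and 0.364 and did not reach the minimum for testing.

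Another group, on chromosome 9, was higher in the adrenal gland than in the hypothalamus. In the window from 11000000, 4 of 10 loci had a transcript called higher than each of the 4 tissues. Of 11 tested transcripts 8 were higher than the average of the 4 tissues and none was lower (12.5 and 53.4% over all tested). The window was picked for its called loci, and its 4 called transcripts reached the minimum FPKM in the hypothalamus alone of the 5 tissues. The filter fixed the direction of these 4, so the counts are a description. TCONS_00106384, which overlaps ENSRNOG00000039248 (11060508 to 11560435, an interval that its neighbours share), had 5.97 and 3.61 in the hypothalamus, 9.91 and 19.7 in the adrenal gland, and 0 in 7 of 8 columns, with 0.468 in outer medulla column 1 (adjusted p against each tissue 0.0125). TCONS_00106367 had 3.03 and 1.61 against 17.7 and 6.22 in the adrenal gland, and TCONS_00106378 had 5.30 and 3.58 against 21.1 and 17.8. TCONS_00106361 had 4.25 and 3.29 against 4.83 and 4.69. All 4 were higher in hypothalamus column 1 than in column 2. TCONS_00106384, TCONS_00106367 and TCONS_00106378 are themselves among the 10 adrenal transcripts compared between these columns at the start. The call of TCONS_00106384 was lost without either hypothalamus column and that of TCONS_00106378 in 8 of the 10 fits without 1 column.

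On chromosome 1 5 of the 6 loci tested in the window from 123000000 were called, and none of their 5 transcripts had a reference gene. All 3 windows were picked for their number of called loci, and the 5 transcripts entered the test through the hypothalamus alone. These counts therefore support nothing further. Over all tested, 7.24% of transcripts were called higher than each tissue, at 71 of 883 loci. TCONS_00009884 (123992270 to 123995878) had 4.79 and 4.39 against at most 0.341 in the 8 columns, and its call (adjusted p = 0.0157) was lost in 6 of the 10 fits without 1 column. TCONS_00009886, which starts just after it (123995987 to 123997923), had 2.78 and 3.32 against at most 0.249. TCONS_00009784 had 1.94 and 2.40, TCONS_00009815 had 1.57 and 1.31, and TCONS_00009871 had 0.701 and 1.31 with 0 in all 8 columns. Adrenal levels were below the hypothalamus levels in both columns for 4 of the 5, and TCONS_00009871 had 0.282 and 1.99 there. Without hypothalamus column 2, TCONS_00009871 no longer reached the minimum FPKM.

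Transcripts at genes known from the nervous system were few. For the 37 genes on the list of neural lncRNAs, 6 transcripts were in the table and 2 were tested, both above the average of the 4 tissues (12.5% over all tested). TCONS_00055701 overlaps Sox2, the gene of a transcription factor of neural stem cells and glia that lies inside a long non-coding transcript (chromosome 2, 140593626 to 140862826). It had 4.04 and 4.41 in the hypothalamus and 0 to 0.176 in the 8 columns, a difference of 4.82 (SE 0.37, adjusted p against each tissue 0.000929). TCONS_00055701 reached the minimum FPKM in the hypothalamus alone, so the filter fixed its direction and the count for this list is a description. TCONS_00072731 shares a splice junction with Snhg11, a host gene of small nucleolar RNAs (chromosome 3, 160733863 to 160743375). Its 3.48 and 8.22 differed from the average by 3.58 (SE 0.96, adjusted p = 0.0149), but outer medulla had 2.76 and 2.23 and it was not called higher than each tissue. Without hypothalamus column 1 or column 2 the adjusted p rose to 0.0587 and 0.132, and without left ventricle to 0.0595.

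The list of neuronal microRNA hosts was next. Of 48 genes on that list, 21 transcripts were in the table and 7 were tested, of which 5 were higher than each of the 4 tissues (7.24% over all tested) and 1 was lower than their average (53.4% over all tested). After rescaling 6 were higher than the average and 1 lower. The 5 higher ones reached the minimum FPKM in the hypothalamus alone, so the filter fixed their direction and their number is a description. The 7 lie at 4 loci and are not independent.

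The transcripts at Mir384 and Mir325 share 1 locus on chromosome X (77086036 to 77151776). TCONS_00113683, of 31358 bases at Mir384, had 4.71 and 5.28 in the hypothalamus and 0.0159 to 0.16 in the 8 columns, a difference of 4.86 (SE 0.22, adjusted p against each tissue 6.9e-05). The Mir325 transcripts TCONS_00113684 (2.71 and 2.83) and TCONS_00113689 (3.56 and 3.94) were higher by 4.62 (SE 0.30) and 4.47 (SE 0.26). In the adrenal gland the 3 transcripts lay between 0.302 and 1.17, above all 8 columns and under all their hypothalamus values. They share sequence, so the split of fragments between them is an estimate.

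The transcripts at Mir124-2 and Mir129-2 were lower in level and also apart from all 8 columns. TCONS_00055335 at Mir124-2 (chromosome 2, 122043167 to 122053306), a gene of an abundant microRNA of neurons, had 1.85 and 1.31 against at most 0.048 in the 8 columns, a difference of 3.92 (SE 0.20, adjusted p against each tissue 8.26e-05). TCONS_00071227 at Mir129-2 (chromosome 3, 89753871 to 89839967) had 1.12 and 1.01, with 0 in all 8 (adjusted p = 4.92e-06, to which those 8 columns add no spread). In the adrenal gland both were listed at 0 in column 1 and had 0.127 and 0.357 in column 2.

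The 2 tested transcripts at Mir29b-2, whose product is also found in many organs, did not move together. TCONS_00030100 had 0.539 and 0.434 in the hypothalamus and 1.13 to 2.40 in the 8 columns, and was lower than the average (-1.76, SE 0.22, adjusted p = 0.000716; -0.81 and 0.0281 after rescaling). TCONS_00030097, from the same locus, had 1.21 and 1.41, and its difference of 1.27 (SE 0.86) was not called (adjusted p = 0.227), but it was after rescaling (2.27, adjusted p = 0.0458) and without liver column 1 (1.71, 0.017).

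**Figure D4:**
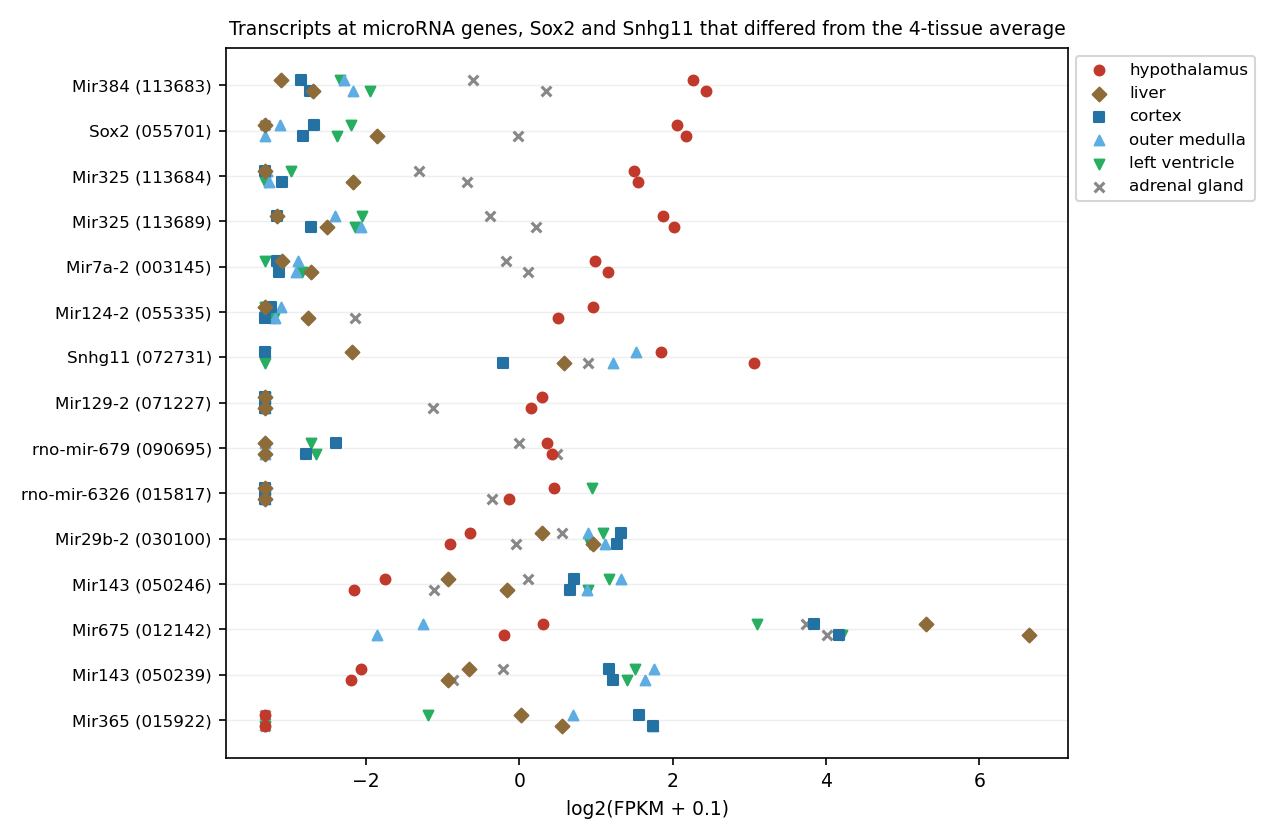
Each line shows the 12 column values of 1 transcript on a log2(FPKM + 0.1) axis, for the 15 transcripts at microRNA genes, Sox2 and Snhg11 that were called against the average of 4 tissues, sorted by difference. Labels give the reference gene and the last digits of the transcript name. Hypothalamus points (red) lie to the right of all points of the 4 tissues for Mir384, Sox2, Mir325, Mir7a-2, Mir124-2, Mir129-2, rno-mir-679 and Snhg11. They lie to the left of them for both Mir143 transcripts and Mir29b-2. For rno-mir-679 the adrenal points fall on both sides of the red ones.

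Across all 23 tested transcripts at a microRNA gene, a list drawn up after the names in the table were seen, 8 were higher and 5 lower than the average of the 4 tissues (12.5 and 53.4% over all tested). Against each tissue 7 were higher and 1 lower (7.24 and 2.3% over all tested). The 7 reached the minimum FPKM in the hypothalamus alone, so the filter fixed their direction and their number is a description. The 23 lie at 15 loci and are not independent, and TCONS_00003260 and TCONS_00003261 at rno-mir-1839 have identical values. After rescaling 21 were tested, with 11 higher and 5 lower than the average, and 7 higher and 0 lower than each. The median difference was 0.21. TCONS_00003145 at Mir7a-2 (chromosome 1, 141547592 to 141552779), a microRNA of neurons and endocrine cells, is counted in that list and was picked for mention after its values were seen. It had 1.88 and 2.12 in the hypothalamus, 0.783 and 0.982 in the adrenal gland and at most 0.0523 in the 8 columns, a difference of 4.08 (SE 0.19, adjusted p against each tissue 6.31e-05).

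At the other end, TCONS_00050239 at Mir143 (chromosome 18, 56195504 to 56217968), a microRNA of smooth muscle, had 0.139 and 0.118 in the hypothalamus, 2.148 to 3.28 in cortex, outer medulla and left ventricle, and 0.536 and 0.423 in liver. It was lower than the average by -3.02 (SE 0.18), or -2.29 after rescaling, and lower than each tissue (adjusted p = 0.0352), a call lost in 8 of the 10 fits without 1 column and after rescaling. TCONS_00012142 at Mir675, a microRNA cut from the imprinted lncRNA H19, had 1.14 and 0.774 in the hypothalamus and 39.2 and 100.3 in liver, but only 0.318 and 0.176 in outer medulla. It was lower than the average (-2.96, SE 0.44, adjusted p = 0.00137; -1.98 and 0.0116 after rescaling) and not lower than each tissue.

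Among transcripts lower than each of the 4 tissues, the largest difference was at Glyat, which encodes an acyltransferase of liver and kidney mitochondria. TCONS_00005818 (chromosome 1, 236219825 to 236241073) shares a junction with it and had 0 and 0.0511 in the hypothalamus against 53.8 and 290.9 in liver. The cortex had 44.0 and 41.7, the outer medulla 11.8 and 9.16, and the left ventricle 2.84 and 2.22 (adjusted p against each tissue 0.0325). TCONS_00086818 (chromosome 5, no reference gene) had 0.0514 and 0 against 45.8 and 40.7 in liver and 0.503 to 1.32 elsewhere. TCONS_00093049 (chromosome 6) was listed at 0 and 0.000413 against 0.533 to 1.70. The hypothalamus lay below all 8 columns in each, and the adrenal gland was also low in the first 2, at no more than 0.481, but not in the third (0.576 and 1.72).

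The other 5 of the 8 largest stayed measurable in the hypothalamus. TCONS_00049656, which overlaps Nrep, had 0.67 and 0.738 against 2.92 to 72.8, with liver highest (38.2 and 72.8), and was lower by -3.498 on average (SE 0.24) or -2.51 after rescaling. TCONS_00111959 (chromosome X) had 0.725 and 0.509 against 3.74 to 18.7 (-3.84, or -2.86 rescaled), and TCONS_00089708 (chromosome 6) had 0.724 and 0.478 against 4.32 to 16.1 (-3.52, or -2.55). TCONS_00058855 (chromosome 2) had 0.606 and 0.465 against 3.84 to 23.7 (-3.48, or -2.52), and TCONS_00029941 (chromosome 13) had 0.309 and 0.481 against 1.82 to 14.6 (-3.46, or -2.54). All 8 stayed below the average after rescaling at adjusted p-values up to 0.000443, and none stayed below each tissue. Over the 26 the median difference was -3.18, or -2.49 after rescaling.

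The 5 most abundant lncRNAs of the hypothalamus held 62.3 and 68.5% of its total FPKM. TCONS_00032703, which overlaps ENSRNOG00000049138 (chromosome 14), had 890.7 and 1335 in the hypothalamus, 3416 in cortex column 1, and 0 in cortex column 2 and the other 6 columns of the 4 tissues. It was above the average (adjusted p = 0.0185) but not above each tissue, and the call was lost without hypothalamus column 1 (0.102) or 2 (0.115). TCONS_00015674, which overlaps ENSRNOG00000047167 (chromosome 10), had 518.6 and 731.3 against 147.6 to 1587, and its difference of 0.35 was not called (adjusted p = 0.42). It was called after rescaling to the same median (1.43, adjusted p = 0.0066) or upper quartile (1.11, 0.0112), and without liver (0.66, 0.0141) or liver column 1 (0.54, 0.0379).

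TCONS_00012467 (chromosome 1, 228080092 to 228091758, no reference gene) was among the top 5 and below all 8 columns, at 352.2 and 278.8 against 524.7 to 1112. It was lower than the average by -1.34 (SE 0.13, adjusted p = 0.000187) and by -0.26 after rescaling (adjusted p = 0.0444). TCONS_00083749 shares a junction with Camk2n1, an inhibitor of the calcium-dependent kinase CaMKII that is rich in brain (chromosome 5, 160625418 to 160628579). It had 46.2 and 46.4 in the hypothalamus against 3.03 to 21.7, above all 8 columns, and was higher than the average by 2.19 (SE 0.24, adjusted p = 0.000371). Against each tissue its adjusted p was 0.108, or 0.00095 after rescaling. The fifth was TCONS_00090635 on chromosome 6.

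Transcripts at marker genes of the compared organs were also counted. Of the 4 tested at liver genes 3 were lower than the average and none higher, and of 3 at kidney genes 2 were lower, where 53.4% of all tested were lower. After rescaling 2 of 3 were lower on each list. TCONS_00067610, which overlaps Slc12a1, the salt transporter of the thick ascending limb, was listed at 0 in both hypothalamus columns and had 36.5 and 36.6 in outer medulla and 12.2 and 14.7 in cortex. The transcript antisense to Pdgfrb, a gene of pericytes on the list for glia and other brain cells, was at 0 in the hypothalamus and lower than the average on both scales (adjusted p = 0.0207, and 0.0154 after rescaling). It had 6.40 and 3.02 in liver and 0 to 0.17 in the other columns of the 4 tissues. Of the single tissues, it was called lower against liver only (limma, adjusted p = 0.000368). The transcript at the muscle gene Myl1 was not called. The strand setting of the counting is not stated in the labels, so a transcript that overlaps a gene, or lies antisense to it, may hold reads of that gene.

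The 82 higher transcripts differed widely in the adrenal gland. The adrenal mean was under 5% of the hypothalamus mean for 12 and at 50% or more for 12, of which 8 were at 100% or more. Adrenal column 1 had a median of 3.15% of the hypothalamus mean and column 2 of 20.3%, and column 2 was the higher for 64 of the 82. The same counts over all tested transcripts were not made, so these describe the 82 only.

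**Figure D5:**
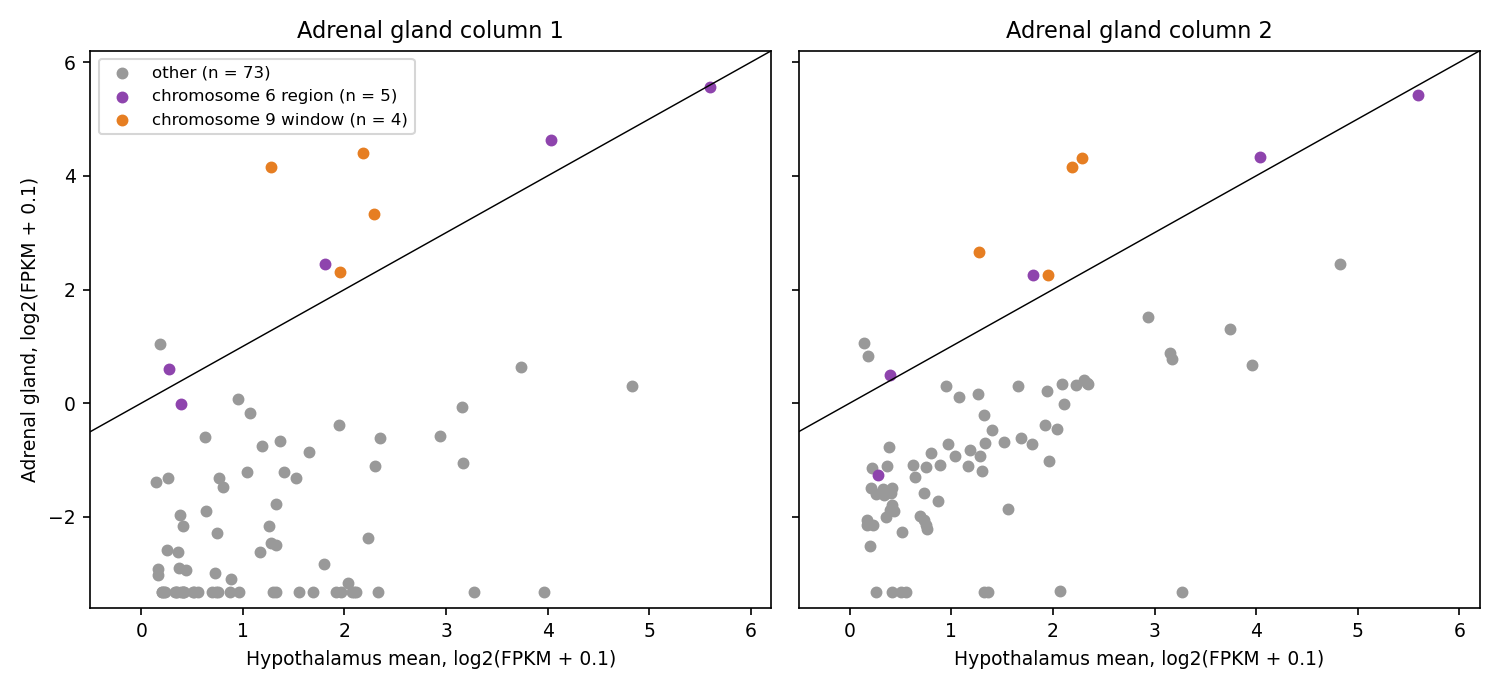
Each point is 1 of the 82 transcripts, with its hypothalamus mean on the x axis and its level in adrenal gland column 1 (left) or column 2 (right) on the y axis, both as log2(FPKM + 0.1), and a line of equal level. Points of the chromosome 9 window (orange, 4) lie above the line, those of the chromosome 6 region (purple, 5) lie on both sides of it, and most of the other 73 lie below it, nearer to it in column 2.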

How the data were processed

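The authors deposited 1 table of FPKM for 12 columns, with transcript length in bases as a further value. Per the labels' protocols, TRIzol was used for extraction and the kit was TruSeq Stranded RNA LT. The submitters' processing notes name the rn5 build and bcl2fastq 2.15.0. The lncRNA criteria, aligner, FPKM program and annotation were not stated in those sources. Coordinates are those of each locus as the table gives them, and whether they count from 0 or 1 is not stated. Depth was implied from the steps of low values, assuming fragments of 140 bases.

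limma 3.58.1 (R 4.3.3) with a mean-variance trend was fitted to log2(FPKM + 0.1) in 10 columns, with tissue as the factor. It was checked on simulated data for the contrast with the average only and without the minimum FPKM. That check did not cover the calls against each tissue. A call against each tissue took the largest of the 4 p-values where all 4 differences had 1 sign. Tables were made with Python 3.11.15, pandas 2.3.3 and NumPy 2.4.6.

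Named transcripts were the 12 higher and 8 lower than each tissue with the largest differences (1 per locus, columns not overlapping), the 5 most abundant, tested members of the 4 lists of neural, microRNA, Dlk1-Dio3 and hypothalamic genes, and the largest transcript per called locus in the 3 windows of 1000000 bases with the most called loci. Members and lists were chosen with earlier results of these data known. Alternatives were other pseudocounts, minimums, scales, groupings of tissues, sums per locus, a rule of size, a replicate block and each column left out.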

Additional observations from a re-analysis of the deposited data

Results flagged for a closer look

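The adrenal gland columns were outside the contrast and carried signal at many of its calls. Of the 82 transcripts higher in the hypothalamus than in each of the 4 tissues, 36 had both adrenal columns above all 8 columns of those tissues. Among these, 10 had an FPKM of 1 or more in both adrenal columns. Because 78 of the 82 stayed under 0.5 in all 8 columns, a low adrenal level was enough to pass them. The share over all tested transcripts was not counted. In 8 the adrenal mean was at 100% or more of the hypothalamus mean, and 4 were listed at 0 in both adrenal columns. The 4 named transcripts of the chromosome 9 window and the 4 called in the chromosome 6 window include the highest adrenal means among the 82. The part of either tissue's RNA in the other's columns was not tested.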

How the results depend on the processing

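With a pseudocount of 0.01, 54 transcripts were higher and 45 lower than each tissue, and with 1 only 3 were lower. A minimum FPKM of 0.5 gave 253 higher than the average and 156 higher than each. A minimum of 2 gave 68 higher and 356 lower than the average, 41 higher than each, and 313, 320, 294 and 242 calls against liver, cortex, outer medulla and left ventricle (516, 577, 539 and 426 as reported). No minimum gave 364 higher than the average, 199 higher and 16 lower than each, and 896, 830 and 654 calls against cortex, outer medulla and left ventricle. The same median gave 323, 202 and 0 for higher than the average, higher than each and lower than each, and the same upper quartile gave 255, 157 and 5.

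The count lower than each was 47 with cortex and outer medulla averaged, 93 without liver, 75 without left ventricle, 47 over sums per locus, 8 by a 5-fold rule of size and 17 with the replicate block. With the 4 tissues as 1 group 61 were lower than the average. Differences between column 1 and column 2 of a tissue correlated across transcripts at -0.07 to 0.10 between the 5 tissues. These values cannot tell whether same-numbered columns come from the same animal or run. The block otherwise moved no count by over 1.5 times (139 higher and 599 lower than the average, 83 higher than each).

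Without 1 column, the counts ran from 118 to 160 (higher than the average), 374 to 671 (lower), 68 to 84 (higher than each), 0 to 40 (lower than each), 430 to 555 (liver), 473 to 618 (cortex), 420 to 594 (outer medulla) and 321 to 496 (left ventricle). Of the 82, 58 were called in all 10 such fits and 77 in all 4 fits without 1 of the tissues, while each of the 26 lost its call in at least 3 fits. Of 42 named transcripts 40 were called against the average, 35 of them in every alternative that gave a value. TCONS_00030097 turned to -0.58 (adjusted p = 0.0275) when FPKM was summed over its locus, which holds TCONS_00030100 as well. With the 4 tissues as 1 group, 5 named calls were lost (TCONS_00086818, TCONS_00049656, TCONS_00032703, TCONS_00083749 and TCONS_00072731). For other changes the cause was not tested. Counts for cortex or outer medulla were not run with the 2 averaged, nor those against single tissues with the 4 as 1 group. Low values in liver column 2 are the least precise.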

Other observations

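Some tested transcripts, 105 at 84 loci, overlap a reference gene other than by a match, a shared junction or an antisense exon. Of these, 30 (28.6%) were above the average of the 4 tissues and 37 (35.2%) below it, against 12.5 and 53.4% over all tested. The counts above it were 97 of 829 (11.7%) without a reference gene and 6 of 95 (6.32%) antisense to an exon. With a shared junction they were 7 of 63 (11.1%), and with a match 1 of 40 (2.5%). No difference between these classes was tested. Of the 82 higher than each tissue, 15 (18.3%) were 8000 bases or longer, against 9.81% of all tested. The share was alike among the 26 lower than each tissue, at 5 (19.2%). Chromosome X had 7 of 36 tested transcripts (19.4%) among the 82, at 3 loci, and chromosomes 14, 19 and 20 had 0.

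Of 156 loci with 2 or more tested transcripts, 2 had calls in both directions against the average. At XLOC_001780 on chromosome 1 (132484515 to 132618088), TCONS_00002918 had 1.03 and 1.19 in the hypothalamus against 0 to 0.773 in the 8 columns (2.13, SE 0.34, adjusted p = 0.00173), while TCONS_00002914 had 0.315 and 0.0207 against 0.195 to 4.15 (-2.50, adjusted p = 0.0171). After rescaling this lower call was lost (-1.90, adjusted p = 0.0727). At the same locus TCONS_00002908, at 0 in both hypothalamus and both left ventricle columns, was lower on both scales. Its difference was -2.06 (adjusted p = 0.00285), or -1.925 after rescaling (0.00258). TCONS_00002918 stayed higher after rescaling (3.07, adjusted p = 0.000376). At XLOC_048695 on chromosome 4, TCONS_00078284 was higher (0.94, adjusted p = 0.0151), with left ventricle at 0 in both columns, and TCONS_00078285 lower (-1.82, or -0.79 after rescaling). How fragments were split among transcripts of a locus is an estimate of the authors' program.

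A few more called transcripts were picked for mention after their values were seen. TCONS_00052695 shares a junction with IL15, a cytokine gene, and had 0.273 and 0.154 in the hypothalamus against 1.86 to 3.89. TCONS_00074956 shares one with Gimap5, a GTPase gene of lymphocytes, and had 0.0263 and 0.0458 against 0.479 to 1.51. Both were called lower than each tissue, and both lost that call in 4 of the 10 fits without 1 column and after rescaling (adjusted p = 0.0985 and 0.113). Among the higher ones, TCONS_00074421, antisense to the axon guidance receptor gene Plxna4a, had 1.60 and 1.44 and was listed at 0 in all 8 columns.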
